A study of Mus musculus with 13 samples.

Results

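Mrc1, Csf1r, Cx3cr1, C1qa, C1qb, Cd68, Lyz2 and Aif1 are genes by which tissue macrophages are commonly recognised, and their levels were compared in 3 neighbouring parts of the embryonic mouse lower urinary tract and in newborn mice. The members were taken as every probe set, the group of short oligonucleotides that measures a transcript on an Affymetrix array, whose platform annotation gave 1 gene symbol and whose symbol was one of these 8. This gave 13 of the 45101 probe sets, and the probe set with the highest mean over the 13 arrays stood for each gene. Of the 8 genes, 7 were bright enough to be tested among 15019 genes of the series, and Aif1 was not.

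Macrophages enter the organs of the embryo from the yolk sac and the fetal liver and settle there as long-lived resident cells that clear dying cells and debris. Their survival depends on Csf1r, the receptor for the growth factors Csf1 and Il34. Resident cells are told apart by surface receptors, among which Mrc1, the mannose receptor, binds sugar chains and brings the bound particles into the cell, and Cx3cr1 binds the chemokine Cx3cl1. C1qa and C1qb encode chains of C1q, the complement protein that tags debris for uptake and is made mostly by macrophages. Cd68 is a glycoprotein of lysosomal membranes, Lyz2 is the lysozyme of myeloid cells, which attacks bacterial walls, and Aif1 is a calcium-binding protein of the macrophage cytoskeleton.

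The tested tissues were the bladder (3 arrays, replicates 2, 6 and 8), the urethra (3 arrays, replicates 1, 2 and 6) and the urogenital sinus (4 arrays, replicates 1, 2, 6 and 7) of embryos at embryonic day 14. All were offspring of FVB/N females and males carrying the SMGA/EGFP transgene, in which the promoter of Actg2, smooth muscle gamma-actin, drives green fluorescence, and their sex is given as unknown. Fluorescence guided the dissection, so that bladder and urethra are glowing pieces and the sinus is the dark piece between them, and no sample was enriched for macrophages. By Theiler stage, a scale of mouse development, samples numbered 1 or 2 were at 21 and those numbered 6, 7 or 8 at 22. The remaining 3 arrays held reference RNA from wild-type FVB/N mice at postnatal day 1, pooled from 4 male and 4 female whole animals (Theiler stage 27), which contains every organ, blood-forming tissue included. Separate embryos are not stated in the labels, so a p-value here speaks for the spread among these samples, which may be technical.

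In the RefSeq annotation of the assembly GRCm38.p6, Mrc1 lies at chr2:14229414-14332023, Cx3cr1 at chr9:120048683-120068296, Cd68 at chr11:69664213-69666170, Lyz2 at chr10:117277541-117282272 and Aif1 at chr17:35170986-35176083. C1qa (chr4:136895916-136898844) and C1qb (chr4:136880126-136886200) are neighbours. These positions are those of the genes, since no build is stated for the probe sets. RefSeq sequence upstream of the start was matched for 6 of the 8 members. The sequences below are the 250 bases before the start of Mrc1 (chr2:14229164-14229413, plus strand), C1qb (chr4:136886201-136886450, minus strand) and Cd68 (chr11:69666171-69666420, minus strand), shown because these genes took opposite orders in bladder and urethra. Capitals mark GAGGAA, the core of many binding sites of the macrophage transcription factor PU.1, where it lies on the printed strand, or TTCCTC, the same core on the opposite strand; the 2 spellings cannot overlap.
Mrc1: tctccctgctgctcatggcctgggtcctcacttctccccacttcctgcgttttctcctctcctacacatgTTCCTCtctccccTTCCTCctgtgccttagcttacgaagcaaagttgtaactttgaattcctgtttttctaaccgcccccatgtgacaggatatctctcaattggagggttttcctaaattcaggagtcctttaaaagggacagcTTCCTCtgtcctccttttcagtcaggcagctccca
C1qb: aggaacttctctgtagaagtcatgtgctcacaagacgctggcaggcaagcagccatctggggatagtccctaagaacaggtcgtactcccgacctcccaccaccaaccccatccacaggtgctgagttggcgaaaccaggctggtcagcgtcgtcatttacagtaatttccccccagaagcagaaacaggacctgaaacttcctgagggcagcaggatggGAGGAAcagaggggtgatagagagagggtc
Cd68: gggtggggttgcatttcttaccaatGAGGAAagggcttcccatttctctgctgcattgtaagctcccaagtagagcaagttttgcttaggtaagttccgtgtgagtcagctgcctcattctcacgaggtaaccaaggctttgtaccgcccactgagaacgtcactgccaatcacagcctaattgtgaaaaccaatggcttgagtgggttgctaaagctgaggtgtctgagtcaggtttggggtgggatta
The Mrc1 window held 3 matches, all on the opposite strand, of which the nearest lies 35 to 30 bases before the start. The C1qb window held 1 match, 30 to 25 bases before the start, and the Cd68 window 1, at 225 to 220 bases. Aif1 had 1 match, and Lyz2 and Cx3cr1 had 0. The motif occurred in 23.3% of 32851 mouse windows of this length, so a match only describes the sequence.

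All values are log2 intensities, each array having been scaled by the submitters to a common trimmed mean. Intensities were floored at 5.65, and a level of 7.39 was used as the filter level under which a probe set was taken as dim. Mrc1, Csf1r and Lyz2 passed the filter level on 13 of 13 arrays, C1qb and Cx3cr1 on 12, Cd68 on 11, C1qa on 8 and Aif1 on 2. Different genes are not compared with each other in level, since probe sets differ in brightness. The 13 arrays had the same 2% trimmed mean of 1500, but median intensity was 142 to 238 in the bladder, 221 to 378 in the urethra, 259 to 389 in the sinus and 278 to 455 in the reference. Beta-actin signal near the 3′ end over that near the 5′ end, a log2 ratio that rises as amplified RNA gets shorter, was 4.04 on bladder replicate 8, 3.42 on urethra replicate 1 and 3.01 on reference replicate 1, and 2.73 or less on the other arrays. Sinus replicate 1 and urethra replicate 1 held the most red cell RNA. Actg2, the gene behind the dissection, averaged 13.67 ± 0.26 (SD, n = 3) in the bladder, 13.31 ± 0.39 (n = 3) in the urethra and 9.26 ± 1.15 (n = 4) in the sinus.

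Among the regions, Mrc1 read highest in the bladder. Its log2 intensity was 12.06, 12.27 and 12.66 on bladder replicates 2, 6 and 8. In the urethra it was 9.74, 11.02 and 9.92 on replicates 1, 2 and 6, and in the sinus 11.63, 10.24, 10.77 and 10.19 on replicates 1, 2, 6 and 7. The reference arrays read 13.36, 12.98 and 13.19. Every bladder array thus lay above every urethra and every sinus array and below every reference array, while urethra and sinus overlapped. The group means were 12.33 ± 0.31 in the bladder (SD, n = 3), 10.23 ± 0.69 in the urethra (n = 3), 10.71 ± 0.67 in the sinus (n = 4) and 13.18 ± 0.19 in the reference (n = 3). In these pieces of whole tissue, macrophage number, RNA per macrophage and Mrc1 RNA from other cell types cannot be told apart.

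Csf1r, the growth factor receptor, followed another order. Bladder replicates 2, 6 and 8 read 12.02, 11.21 and 11.78, urethra replicates 1, 2 and 6 read 12.76, 11.49 and 11.63, and sinus replicates 1, 2, 6 and 7 read 13.17, 11.87, 11.76 and 10.65. The regions overlapped throughout, with means of 11.67 ± 0.42 in the bladder, 11.96 ± 0.69 in the urethra and 11.86 ± 1.03 in the sinus. The reference arrays, at 14.75, 14.57 and 14.41, all lay above every region array. The other Csf1r probe sets gave bladder minus urethra differences of −0.15 and −0.73, and the main one −0.29.

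For Cx3cr1, the chemokine receptor, single arrays decided the means. It read 10.84, 10.76 and 8.32 on bladder replicates 2, 6 and 8, 7.22, 10.43 and 11.16 on urethra replicates 1, 2 and 6, 11.10, 9.91, 11.45 and 10.52 on sinus replicates 1, 2, 6 and 7, and 9.43, 11.98 and 11.93 on reference replicates 1, 2 and 3. The lowest array of the bladder, of the urethra and of the reference was in each case the one with the highest 3′ to 5′ beta-actin ratio. The sinus went the other way: its lowest Cx3cr1 array, replicate 2, had its lowest ratio (1.21), and replicate 7, with its highest ratio (2.73), read 10.52. Over the 10 region arrays, Cx3cr1 and that ratio had a Pearson correlation of −0.78, against −0.41 to 0.16 for the other 6 members tested, a description of arrays that also share regions and stages. The part of RNA length in the Cx3cr1 values was not tested. The bladder minus urethra difference of Cx3cr1 was 0.37 with all arrays and −0.82 without urethra replicate 1. The other Cx3cr1 probe set lay at the floor on 3 of 3 bladder, 2 of 3 urethra, 3 of 4 sinus and 3 of 3 reference arrays.

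The C1q chains read lowest in the bladder. C1qb read 7.88, 7.12 and 8.17 on bladder replicates 2, 6 and 8, against 10.20, 9.42 and 8.73 on urethra replicates 1, 2 and 6 and 10.21, 8.44, 8.55 and 8.60 on sinus replicates 1, 2, 6 and 7. On this probe set every bladder array was below every urethra and sinus array. On the other 2 C1qb probe sets bladder replicate 2 (7.28 and 7.78) lay above urethra replicate 6 (7.23 and 7.31) and above some sinus arrays, and bladder minus urethra was −1.70 and −1.45. The reference stood at 10.12, 10.09 and 10.06, with a mean of 10.09 ± 0.03 (SD), and urethra replicate 1 and sinus replicate 1 reached that level. C1qa read 6.66, 6.22 and 6.01 on the bladder arrays, all under the filter level, 8.84, 8.28 and 7.78 on the urethra arrays, and 8.96, 8.62, 6.95 and 5.65 (the floor) on the sinus arrays. The reference arrays read 8.85, 10.64 and 9.58. The bladder and urethra arrays of C1qa did not overlap, whereas the sinus spanned both. C1qc, the third chain, had 0 of 3 bladder arrays above the filter level and averaged 6.41 ± 0.66 there, 7.66 ± 0.60 in the urethra, 7.17 ± 1.11 in the sinus and 9.39 ± 0.49 in the reference.

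Cd68 read 7.59, 6.81 and 7.53 on the bladder arrays, 9.33, 8.42 and 7.90 on the urethra arrays, 8.81, 7.64, 7.85 and 7.11 on the sinus arrays and 10.45, 10.73 and 10.43 on the reference arrays. The bladder lay below the urethra without overlap, and the sinus overlapped with both. Lyz2 overlapped across the regions: 9.23, 9.03 and 8.32 in the bladder, 9.73, 8.82 and 8.65 in the urethra, 9.31, 9.14, 9.33 and 8.62 in the sinus. In the reference Lyz2 reached 13.07, 12.58 and 12.68, above every region array. Aif1 exceeded the filter level only on urethra replicate 2 (7.65) and reference replicate 3 (9.15). It was 5.65 to 6.00 in the bladder, 5.65 on the other urethra arrays, 5.65 to 6.19 in the sinus and 6.05 and 6.75 on the other reference arrays, so no difference in Aif1 could be read.

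**Figure D1:**
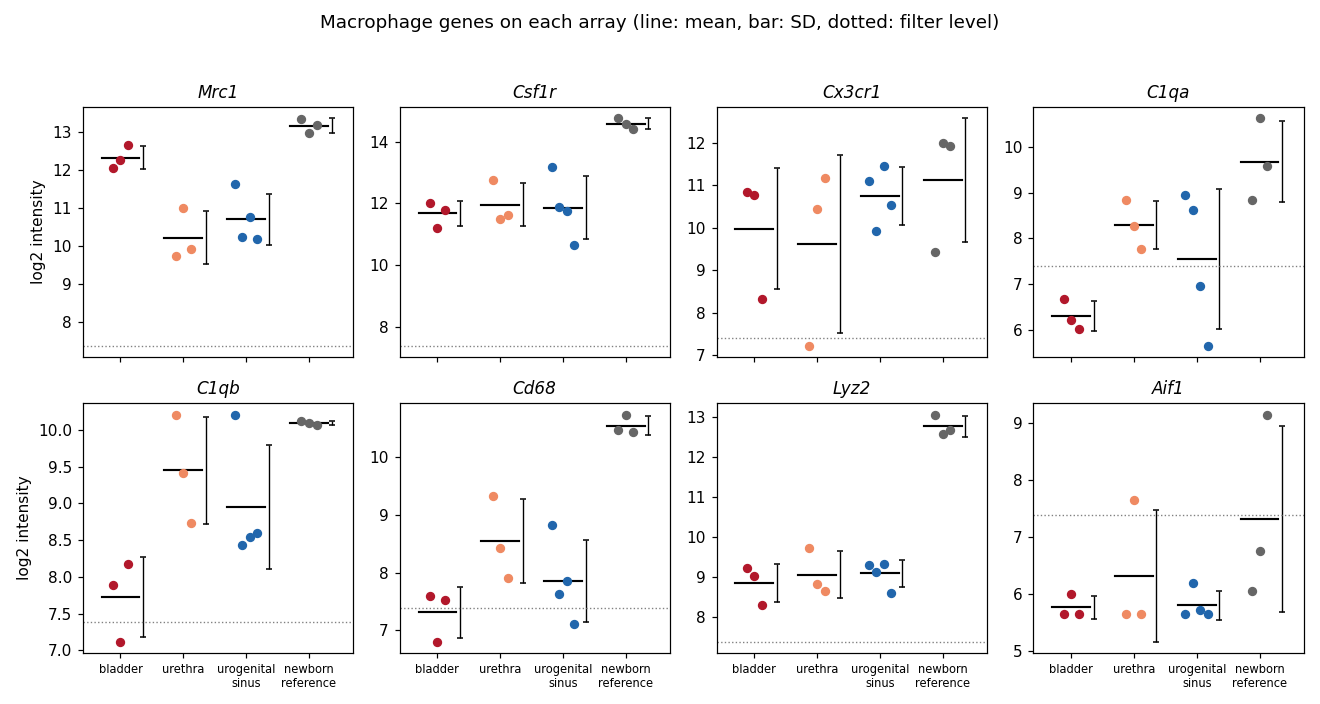
Log2 intensity of the 8 macrophage genes (y axes, log2 scale) on each array of the bladder, urethra, urogenital sinus and newborn reference. Points are arrays, horizontal lines group means, vertical bars the SD and the dotted line the filter level of 7.39. The 3 bladder arrays lie above all urethra and sinus arrays for Mrc1 and below them for C1qb, on the probe set shown.

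Bladder and urethra were both dissected as fluorescent smooth muscle regions, so their comparison asks whether the macrophage genes differ between pieces chosen in the same way. Mrc1 was higher in the bladder: the log2 difference was 2.10 (standard error, SE, 0.45; limma adjusted p = 0.0335), or 4.29-fold, with a 95% interval of 1.09 to 3.11. The members C1qa, C1qb and Cd68 took the opposite order but were not called. C1qa differed by −2.00 (SE 0.77, adjusted p = 0.157), at least 1.88-fold lower in the bladder. C1qb differed by −1.72 (SE 0.57, adjusted p = 0.115) and Cd68 by −1.24 (SE 0.51, adjusted p = 0.180). Csf1r differed by −0.29, Lyz2 by −0.21 and Cx3cr1 by 0.37, and the interval for Lyz2 ran from −1.12 to 0.70. Genes whose p, adjusted over all genes tested, lay under 0.05 are termed called. By this rule 1 of 7 members was called, against 4.33% of all genes. The groups did not overlap for 4 of the 7 (1 higher, 3 lower), against 34.5% of all genes.

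The call of Mrc1 held in 17 of 26 alternatives. Among the settings that ended it, with the direction kept, were no filter on dim probe sets (adjusted p = 0.0535), title style as a fixed block (0.322), and leaving out bladder replicate 2 (0.0827), 6 (0.121) or 8 (0.116), sinus replicate 6 (0.0584), or urethra replicate 1 (0.113) or 6 (0.0809). Over all genes 257 were called higher and 394 lower in the bladder than in the urethra, whereas quantile normalization gave 219 and 169 and centring on array medians 176 and 58.

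Of 18 macrophage receptor genes tested 2 were higher in the bladder than in the urethra and 0 lower, against 4.33% of all genes called in either direction, with a list median of 0.23 against −0.25 for all genes. Lyve1, a hyaluronan receptor of some tissue macrophages and of lymphatic endothelium, read 10.69, 10.71 and 12.04 on the bladder arrays, against 7.07, 7.14 and 6.53 on the urethra arrays, all under the filter level. Its difference was 4.23 (SE 0.72, adjusted p = 0.0155), at least 13.5-fold. Sinus replicates 1, 2, 6 and 7 read 10.50, 8.09, 8.11 and 7.60 for Lyve1, so that every bladder array lay above every sinus array, as for Mrc1. Cd36, a scavenger receptor also found on endothelium and fat cells, averaged 11.53 ± 0.37 in the bladder and 9.18 ± 0.44 in the urethra, which gave 2.36 (SE 0.39, adjusted p = 0.0144).

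F13a1, the factor XIII subunit made by macrophages and megakaryocytes, averaged 11.39 ± 0.05 in the bladder and 8.58 ± 1.14 in the urethra, which gave 2.81 (SE 0.62, adjusted p = 0.0369). Maf, a transcription factor of macrophages and of several other cell types, averaged 13.67 ± 0.28 in the bladder and 9.86 ± 0.91 in the urethra (3.82, SE 0.59, adjusted p = 0.0110), and Klf4, a factor of monocytes and of epithelia, was higher by 1.65 (adjusted p = 0.0214). These were 2 of 14 myeloid transcription factors higher and 0 lower, with a list median of 0.45. In the same comparison 257 of all 15019 genes were higher and 394 lower, and the median difference over the 15019 was −0.25. With 2 calls in a list this short, the count is no result about myeloid transcription factors as a group. Cxcl12, a chemokine of stromal cells, was lower in the bladder: it averaged 11.55 ± 0.80 there and 13.72 ± 0.35 in the urethra (−2.17, adjusted p = 0.0233). H2-Aa, a chain of MHC class II, which presents antigen, lay under the filter level on all 3 bladder arrays and at 8.03 ± 0.60 in the urethra (−2.25, SE 0.50, adjusted p = 0.0376; at least 1.56-fold lower). Slc2a5, a fructose carrier of microglia and gut, differed by −1.29 (adjusted p = 0.0488). With each of 10 region arrays left out in turn, the call for bladder against urethra was lost in 1 case for Cd36 (0.0759) and Maf (0.0583), both without bladder replicate 6, and in 3 for Lyve1, without any 1 of the bladder arrays (up to 0.0573). It was lost in 4 cases for Cxcl12 (up to 0.103), 5 for F13a1 and Klf4 (up to 0.134), 6 for H2-Aa (up to 0.140) and 9 for Slc2a5 (up to 0.159).

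**Figure D2:**
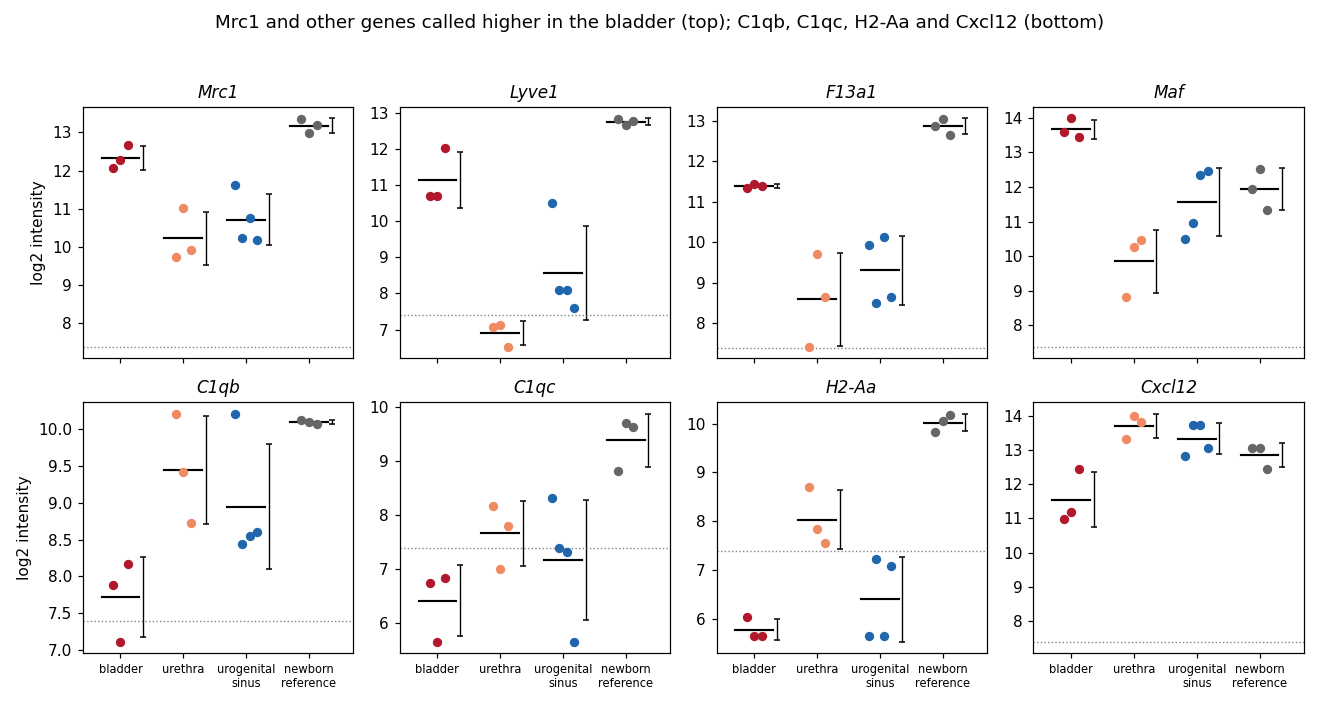
Log2 intensity (y axes, log2 scale) of Mrc1, Lyve1, F13a1 and Maf in the top row and of C1qb, C1qc, H2-Aa and Cxcl12 in the bottom row, by array and group (points), with group means (lines), SD (bars) and the filter level of 7.39 (dotted). The 3 bladder arrays lie above all urethra arrays in the top row and below them in the bottom row.

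Lists of other machinery shared by leukocytes showed no calls between bladder and urethra, where 4.33% of all genes were called. In lists this short, 0 calls lie near that share and are no result about those genes. Of 17 leukocyte signalling genes 0 were called (median −0.22), as were 0 of 16 lysosomal proteins (0.08) and 0 of 8 complement genes (−0.15), C1qc among them at −1.25 (adjusted p = 0.254). Of 12 growth factors and chemokines tested, F13a1 was higher and Cxcl12 lower. The Csf1r ligand Csf1 differed by −1.06 (adjusted p = 0.136), and the Cx3cr1 ligand Cx3cl1 by −0.92 (adjusted p = 0.222). The other Csf1r ligand, Il34, exceeded the filter level on 0 of 10 region arrays and was not tested.

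Markers of other cell types were read beside these genes as the summed intensity of each list. Lymphatic endothelial genes, a list added after the Lyve1 values had been seen, summed to 20185 to 27614 in the bladder, against 17076 to 20842 in the urethra, with 0 of 6 called, a median of −0.78 and Prox1, the defining factor of lymphatic cells, at 7.84 ± 0.78 in the bladder and 8.94 ± 1.19 in the urethra. Blood endothelial genes summed to 18060 to 18264 in the bladder, against 13845 to 15322 in the urethra. Of these 9 genes 1 was called, the VEGF receptor Kdr (2.04, adjusted p = 0.0488, lost in 8 of 10 cases of 1 array left out), and the list median was 0.05. Platelet and megakaryocyte genes summed to 952 to 1471 in the bladder, against 1855 to 2517 in the urethra, with 0 of 5 called. Red cell genes summed to 38640 to 62861 in the bladder, against 114482, 94006 and 61014 on urethra replicates 1, 2 and 6, the same order of urethra arrays as for C1qa, C1qb and Cd68. Epithelial genes summed to 55494 to 81870 in the bladder, against 87974 to 192712 in the urethra. Of these 11 genes 2 were lower in the bladder, the basal keratins Krt5 (−5.06, adjusted p = 0.00174) and Krt15 (−4.43, adjusted p = 0.00337), and the list median was −0.95. Of all genes 4.33% were called here, so 0 calls in a short list lie near that share. The part of endothelium, platelets, red cells and epithelium in these differences was not tested.

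The sinus separates the fluorescent regions and served as the dark piece. It was not free of smooth muscle RNA: smooth muscle genes summed to 46911 on replicate 7, against 9692 to 16401 on the other sinus arrays. Against the sinus, 0 of 7 members were called in the bladder, against 2.54% of all genes, and the groups did not overlap for 2, against 17.9% of all genes. These were Mrc1, higher by 1.62 (SE 0.42, adjusted p = 0.0832; 3.08-fold), and C1qb, at −1.22 (SE 0.54, adjusted p = 0.280). Mrc1 passed the threshold without sinus replicate 1 (adjusted p = 0.0237), the array with the highest Mrc1 level of the sinus, and also with median centring (0.0317) and with array weights (0.00194). C1qa differed by −1.25 (adjusted p = 0.394), Cx3cr1 by −0.77, Cd68 by −0.54, Lyz2 by −0.24 and Csf1r by −0.19, all inside overlapping groups. Over all genes 122 were called higher and 260 lower, against 97 and 98 with quantile normalization and 138 and 35 with median centring.

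Titles are written in 3 styles, which the labels do not call batches, and 2 styles hold both bladder and sinus arrays. Within the style with 2 bladder and 3 sinus arrays the Mrc1 difference was 1.28, and within the style with 1 of each it was 2.47. C1qb differed by −1.56 and −0.43 in these styles and Cd68 by −0.90 and 0.42, the sinus array of the second style reading under the filter level for Cd68. C1qa differed by −1.74 in the first style and lay under the filter level on both arrays of the second. The urethra arrays have a style of their own, shared only with 1 reference array, so no style gives a value of its own for bladder against urethra.

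Among other lists of macrophage biology, 0 of 18 receptors and 0 of 17 leukocyte signalling genes were called between bladder and sinus, with medians of 0.24 and −0.12. These counts lie near the 2.54% of all genes called and are no result about the lists. The called genes were Klf4, higher in the bladder by 2.33 (adjusted p = 0.00572), Ctsk, a collagen-cutting protease of osteoclasts, higher by 1.98 (adjusted p = 0.0440), and Mmp9, a matrix protease of neutrophils, macrophages and osteoclasts, higher by 2.44 (adjusted p = 0.0150). Mmp9 averaged 11.01 ± 0.61 in the bladder, 8.78 ± 0.49 in the urethra and 8.57 ± 0.31 in the sinus, and was also higher in the bladder than in the urethra (2.23, adjusted p = 0.0209). Lower in the bladder than in the sinus were Cxcl12 (−1.79, adjusted p = 0.0445), the lymphatic gene Prox1 (−3.15, adjusted p = 0.0486) and Hdc, the enzyme that makes histamine in mast cells and other cells (−5.41, adjusted p = 0.0255). With 1 of the 10 region arrays left out, the bladder and sinus call was lost in 0 cases for Klf4, in 1 for Mmp9 (0.0843, without bladder replicate 2), in 5 for Hdc (up to 0.122) and in 8 each for Ctsk (up to 0.159), Cxcl12 (up to 0.185) and Prox1 (up to 0.174).

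No member was called between urethra and sinus (0 of 7), against 0.0133% of all genes (2 of 15019 in limma, with 1559 at an unadjusted p under 0.05), and 0 members had an unadjusted p under 0.05. The groups overlapped for all 7, against non-overlap in 8.22% of all genes. The differences were 0.75 for C1qa, 0.70 for Cd68, 0.50 for C1qb, 0.10 for Csf1r, −0.03 for Lyz2, −0.48 for Mrc1 and −1.14 for Cx3cr1. The 95% interval for Mrc1 ran from −1.43 to 0.46 and that for Cx3cr1 from −3.24 to 0.96. In the level of Mrc1 the order was thus reference, bladder, and then sinus and urethra, which did not differ beyond their spread. For C1qb, on the main probe set, the group means ran in the order reference, urethra, sinus and bladder. Urethra and sinus overlapped with each other and with the reference, and no C1qb difference between these groups was called.

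**Figure D3:**
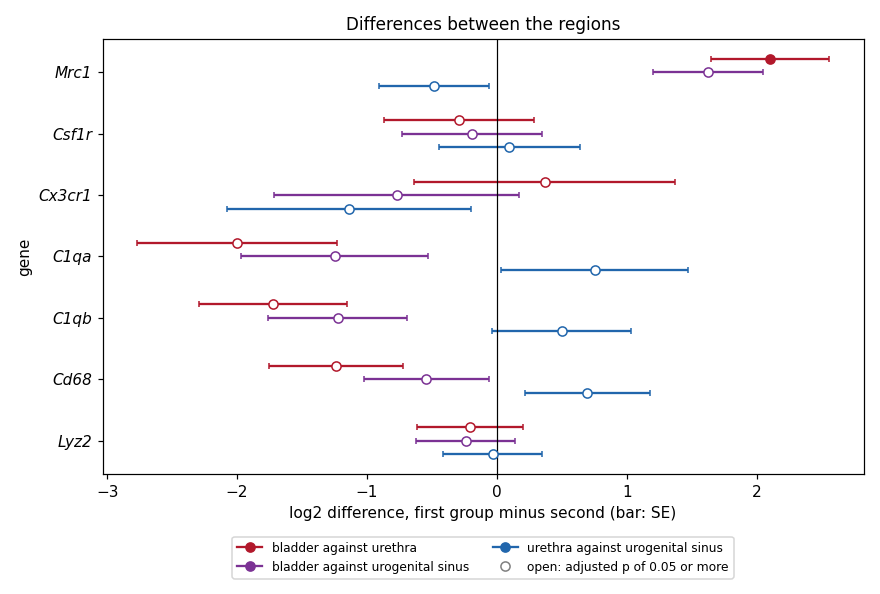
Log2 differences of the 7 tested macrophage genes (x axis, log2 scale) for bladder minus urethra, bladder minus urogenital sinus and urethra minus urogenital sinus, with standard errors (bars). Filled points mark called genes. Only Mrc1 for bladder minus urethra passed an adjusted p of 0.05, at 2.10.

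The newborn reference asks how the regions stand against a whole body at postnatal day 1, blood-forming tissue included. It enters as the mean of its 3 arrays, counted as 1 sample and assumed to vary like the region samples, and all comparisons with it share those arrays. All 7 tested members had differences below 0 in each region, and their medians were −2.91 in the bladder, −1.99 in the urethra and −2.47 in the sinus, while the medians of all genes were −0.27, 0.06 and −0.01. The summed intensity of the 7 members was 9874 to 11394 in the bladder, 7707 to 11050 in the urethra, 5218 to 17355 in the sinus and 44701 to 50341 in the reference.

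Lyz2 had the smallest p in each region. Its difference from the reference was −3.92 in the bladder (SE 0.57, adjusted p = 0.00120; 15.1-fold), −3.71 in the urethra (SE 0.57, adjusted p = 0.00188; 13.1-fold) and −3.68 in the sinus (SE 0.55, adjusted p = 0.00145; 12.8-fold). Lyz1, the closely similar lysozyme of Paneth cells, differed by −4.22, −4.36 and −4.26 in these regions (adjusted p = 0.00643, 0.00627 and 0.00562), and the probe sets of the pair may bind both transcripts. Another Lyz1 probe set differed from the reference by −1.77, −0.46 and −1.34 (adjusted p = 0.152, 0.833 and 0.326, over all probe sets) and the other one by −5.71, −6.05 and −5.72. In the regions themselves Lyz1 differed by 0.14 between bladder and urethra on this probe set and by −1.31 on another.

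In the bladder Cd68 (−3.23, SE 0.72, adjusted p = 0.0137; 9.38-fold) and Csf1r (−2.91, SE 0.82, adjusted p = 0.0364; 7.51-fold) were also lower than in the reference. With Lyz2 these were 3 of 7 members called, against 17% of all genes, and 6 of 7 did not overlap with the reference, against 51%. In a limma fit over all probe sets no Csf1r probe set was called. Adjusted p was 0.0522 for the main one, 0.057 for the second (difference −2.34) and 0.179 for the third (difference −1.85). C1qa (−3.39, adjusted p = 0.0598; at least 4.92-fold lower) and C1qb (−2.37, adjusted p = 0.0726) missed the threshold, and in a fit over all probe sets the 3 C1qb probe sets gave adjusted p-values of 0.112 (this one), 0.0395 (difference −3.27) and 0.151 (difference −3.49). Their partner chain C1qc was lower, with a difference of −2.98 (adjusted p = 0.0490; at least 3.99-fold). Mrc1 stood closest to the reference among the members, at −0.85 (SE 0.64, adjusted p = 0.400), with an interval from −2.27 to 0.58, although its arrays lay under the reference arrays without overlap. Of 13 arrays left out in turn, 0 ended the calls of Lyz2 and Cd68 in the bladder, 6 that of Csf1r (adjusted p up to 0.0893) and 10 that of C1qc (up to 0.116).

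In the urethra Mrc1 was lower than in the reference, with a difference of −2.95 (SE 0.64, adjusted p = 0.0133; 7.71-fold), while Csf1r (−2.62, adjusted p = 0.0652) and Cd68 (−1.99, adjusted p = 0.109) missed the threshold. Mrc1 and Lyz2 were 2 of 7 members called, against 13.2% of all genes, and 5 of 7 did not overlap, against 40.9%. C1qa differed by −1.39 and did not overlap, though its highest urethra array (8.84) and the lowest reference array (8.85) nearly met, and C1qb differed by −0.65 with overlap. In the sinus 4 of 7 were called, against 13.8% of all genes: Lyz2, Mrc1 (−2.47, SE 0.62, adjusted p = 0.0257; 5.52-fold), Cd68 (−2.69, SE 0.70, adjusted p = 0.0309; 6.43-fold) and Csf1r (−2.71, SE 0.79, adjusted p = 0.0485; 6.56-fold). Of the 7, 4 did not overlap, against 32%. In the limma fit over all probe sets no Csf1r probe set was called in the sinus. Adjusted p was 0.0702 for the main one, 0.0525 for the second (difference −2.41) and 0.383 for the third (difference −1.37). Of 13 arrays left out in turn, 0 ended the calls of Lyz2 and Mrc1 in urethra or sinus, 3 that of Cd68 in the sinus (sinus replicate 2, 6 or 7; adjusted p up to 0.0599) and 8 that of Csf1r in the sinus (up to 0.0899). Cx3cr1 was called in no region, at −1.14 in the bladder, −1.51 in the urethra and −0.37 in the sinus.

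Against the reference array of the same title style, Mrc1 differed by −1.19 and −0.32 in the bladder, −2.96 in the urethra, and −2.48 and −2.79 in the sinus. Cd68 differed by −3.26 and −3.20 in the bladder, −1.89 in the urethra, and −2.35 and −3.62 in the sinus. For all genes, calls in the bladder against the reference were 874 higher and 1683 lower, and 1055 and 1226 with quantile normalization.

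**Figure D4:**
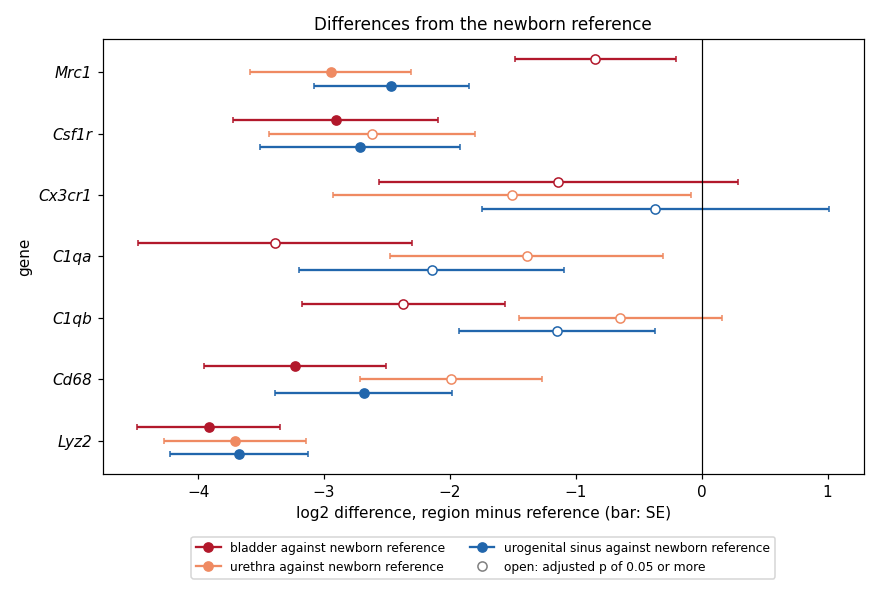
Log2 differences of the 7 tested macrophage genes (x axis, log2 scale) for bladder, urethra and urogenital sinus, each minus the newborn reference, with standard errors (bars). Filled points mark called genes. All values lie below 0, and Mrc1 lies nearer 0 in the bladder (−0.85) than in the urethra (−2.95) or the sinus (−2.47).

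Macrophage receptors were lower in the regions than in the reference. Of 18 macrophage receptors, 7 were lower in the bladder, 8 in the urethra and 9 in the sinus, and 0 were higher, while of all 15019 genes 1683, 1332 and 1382 were lower in these regions. Among the 18, Cd163, Marco and Timd4 lay under the filter level on every region array. They entered the test only through the 3 reference arrays, so the filter fixed their direction and they lend the counts no weight. Marco, a scavenger receptor of spleen and lung macrophages, lay at the floor on all 10 region arrays and at 8.75 ± 0.22 in the reference, at least 2.57-fold lower. Cd163, the haemoglobin scavenger receptor, was under the filter level on every region array and at 10.60 ± 0.83 in the reference, at least 9.23-fold lower. Cd36 was lower, with differences of −4.00 in the bladder, −6.36 in the urethra and −5.08 in the sinus. Lyve1 was lower in the urethra (−5.84) and the sinus (−4.18), and averaged 11.15 ± 0.77 in the bladder and 12.76 ± 0.09 in the reference, where the difference was not called.

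Of 17 leukocyte signalling genes 4 were lower in the bladder, 2 in the urethra and 3 in the sinus, led by the integrin chain Itgb2 at −2.77, −2.84 and −2.68. Among 8 complement genes 3 were lower in the bladder, 2 in the urethra and 2 in the sinus, led by the proteases of the C1 complex, C1ra (under the filter level on every region array, at least 4.33-fold lower) and C1s1 (−4.66, −4.53 and −4.55). C1ra entered the test only through the reference arrays, so the filter fixed its direction. Of 16 lysosomal genes 1, 2 and 2 were lower, led by the protease Lgmn (−2.28, −2.57 and −2.07). Of 14 myeloid transcription factors 4 were lower in each region, Cebpb among them (−2.85, −3.24 and −3.47). Each set of values is in the order bladder, urethra, sinus. Of all genes 17%, 13.2% and 13.8% were called in these regions in either direction, and 1683, 1332 and 1382 of 15019 were lower. The counts of lysosomal and leukocyte signalling genes lie near or under the shares for either direction. Set against the lower genes alone, leukocyte signalling genes were lower more often than all genes in bladder and sinus. In lists this short these counts are no result about those genes. The complement counts rest on 8 genes, C1ra among them, and are likewise no result about that list.

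The stages could be compared within regions, with 5 arrays at stage 22 and 5 at stage 21. No member was called, as was no gene of 15019 (0%), while 3830 genes had an unadjusted p under 0.05 in limma. On the main probe sets C1qa had the smallest p of the members, at −1.45 (SE 0.43, adjusted p = 0.0969) for stage 22 minus stage 21. Its stage 22 arrays lay below those of stage 21 in each region: 6.22 and 6.01 against 6.66 in the bladder, all under the filter level, 7.78 against 8.84 and 8.28 in the urethra, and 6.95 and 5.65 against 8.96 and 8.62 in the sinus. The differences were −0.86 for Csf1r, −0.72 for Cd68, −0.70 for C1qb, −0.44 for Lyz2, −0.21 for Mrc1 and 0.50 for Cx3cr1. Each region has only 1 or 2 arrays per stage, too few to compare the stage effect between regions. Both arrays rich in red cell RNA, sinus replicate 1 and urethra replicate 1, are at stage 21.

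Within the 10 region arrays the members fell into groups that moved together, described here by Pearson correlations over arrays that share regions, stages and scaling. Cd68 followed C1qb (0.93) and C1qa (0.82), and Csf1r followed Cd68 (0.80), C1qa (0.73) and C1qb (0.66). Mrc1 stood aside, at −0.48 with C1qb, −0.44 with C1qa, −0.37 with Cd68, 0.02 with Csf1r and 0.10 with Cx3cr1. The mean log2 level of 6 red cell genes had correlations of 0.89 with C1qb, 0.87 with Cd68, 0.81 with C1qa, 0.72 with Csf1r, 0.65 with Lyz2, −0.22 with Cx3cr1 and −0.34 with Mrc1. Summed red cell intensity was 150946 on sinus replicate 1 and 45867 to 53424 on the other sinus arrays. With sinus replicate 1 and urethra replicate 1 both left out, a setting chosen after seeing the data, bladder minus urethra was 1.86 for Mrc1 (adjusted p = 0.0463), −1.35 for C1qb, −1.73 for C1qa and −0.85 for Cd68. Bladder minus sinus was then 1.93 for Mrc1 (adjusted p = 0.0225) and −0.80 for C1qb. The part of blood in these values was not tested further.

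**Figure D5:**
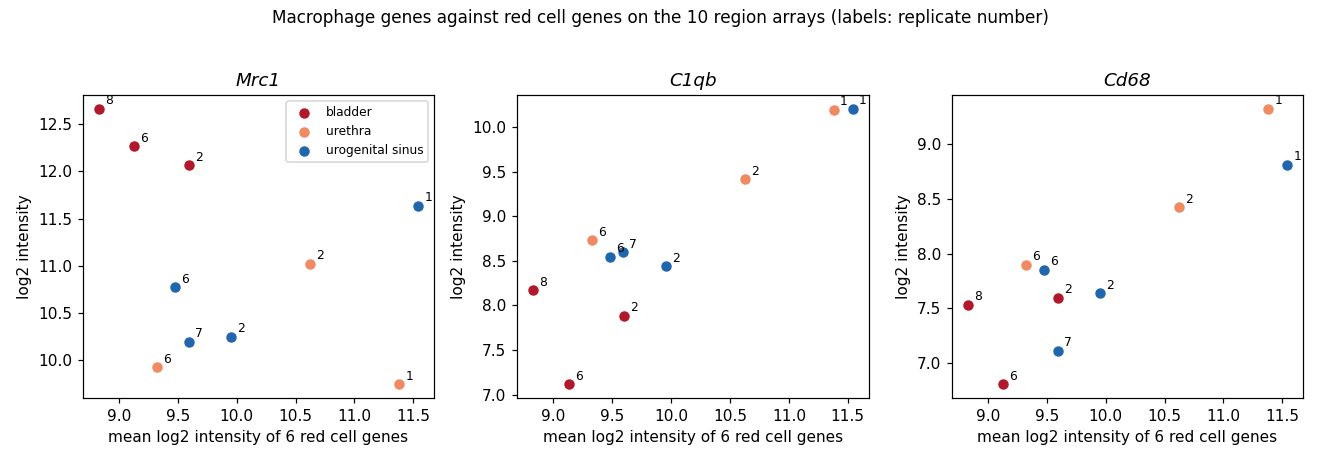
Log2 intensity of macrophage genes (y axes) against the mean log2 intensity of 6 red cell genes (x axes) on the 10 region arrays, coloured by region and labelled by replicate number. C1qb and Cd68 run upward with the red cell level (Pearson correlations of 0.89 and 0.87), and Mrc1 does not (−0.34).

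The genes most like the members as a set, by correlation over the 10 region arrays with the mean of the members scaled to mean 0 and SD 1, were Ccm2l and Map3k12 (0.97) and Tsc1, Fanca, 2700038G22Rik, Pcsk5, Catsperd and Rrnad1 (0.96). A search for genes like Mrc1 alone, added after its values had been seen, gave Zfp469 (0.98), Neil3 and Rhox5 (0.97), Asb4, Abca9 and Trav9d-3 (0.96), F13a1 (0.95) and Aspa (0.95). F13a1 is the only gene of the macrophage lists among these 16 names.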

How the data were processed

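Total RNA of 10 region samples and 3 reference samples was amplified in 2 rounds, biotin-labelled and hybridized to Affymetrix MOE430 arrays, per the labels. The deposited table gives each of 45101 probe sets an intensity on a linear scale. GCOS, the Affymetrix software, is named without a version in the submitters' processing notes, and the sources used here give no further steps. Amplification towards the 3′ end weakens probe sets far from it. The number of arrays limits the precision.

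From the deposited intensities, log2 values were computed after raising those below the table's 20th percentile to it (50.23, log2 5.65). Of the probe sets, 64 were controls, 34945 had 1 gene symbol, 932 several and 9160 none. Probe sets above the 40th percentile (167.76, log2 7.39) on 3 or more arrays were retained, and the brightest on average represented its gene, which left 15019 genes. Differences were tested in R 4.3.3 with limma 3.58.1, using lmFit and trended eBayes (7 residual degrees of freedom between regions), two-sided, with Benjamini-Hochberg adjustment over all genes tested. Stages were compared with region as a covariate. Fits were tested on simulated data.

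"At least" folds set the mean of the brighter group against the filter level, used in place of a measured detection limit, where all arrays of the dimmer group lie under it. All members are described. From each other list up to 4 called genes with the smallest adjusted p could be named, and C1qc, Lyz1, Csf1, Il34 and Cx3cl1 as partners, paralog and ligands. The members and lists were chosen with earlier results of these data known. Alternatives covered scaling, floor, filter, probe set choice, limma settings (random blocks with statmod 1.5.0), title numbers and styles, stage, the arrays fitted and each array left out.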

Additional observations from a re-analysis of the deposited data

Results flagged for a closer look

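C1qb on urogenital sinus replicate 1 read 10.21, far above the other sinus arrays at 8.44, 8.55 and 8.60, a gap larger than Dixon's 95% limit for 4 samples. Chance gives about 1 such mark in 20 groups. The same array held the most red cell RNA and the highest sinus levels of Mrc1, Csf1r, C1qa and Cd68. Without it the limma adjusted p for bladder against urogenital sinus was 0.0237 for Mrc1, and that for C1qb in bladder against urethra was 0.0458.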

How the results depend on the processing

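The number of members called by limma moved with the setting as follows. Centring on array medians gave 1 for bladder against sinus, 1 for bladder against reference and 2 for sinus against reference. With no filter 0 were called for bladder against urethra. Array weights gave 2 for bladder against sinus, 2 for bladder against urethra, 5 for bladder against reference and 4 for urethra against reference. Title style as a fixed block gave 0 for bladder against urethra and 5 for bladder against reference, and as a random block 5 for bladder and 4 for urethra against reference. Theiler stage as a covariate gave 4 for urethra against reference. Fitting only the groups compared gave 2 for bladder against urethra, 1 for sinus and 0 for urethra against reference. The 3 reference arrays as separate samples gave 5 for bladder and 4 for urethra. With both arrays numbered 1 left out, chosen after seeing the data, 1 was called for bladder against sinus, 5 for bladder and 4 for urethra against reference. Leaving out 1 array at a time gave 0 to 1 for bladder against sinus, 0 to 2 for bladder against urethra, 0 for urethra against sinus and between stages, and against the reference 2 to 5 in the bladder, 2 to 4 in the sinus and 2 to 3 in the urethra. The cause of these changes was not tested.

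Mrc1 for bladder against urethra was called in 17 of 26 alternatives, with differences from 1.86 to 2.57. Lyz2 against the reference was called in 29 of 29 for the bladder and the sinus and in 28 of 29 for the urethra. The sign of Mrc1, C1qa and C1qb for bladder against urethra and against sinus was kept in all 26, whereas 15 of 182 member values for bladder against urethra changed sign, all of Csf1r, Lyz2 or Cx3cr1. Deviations of same-numbered samples from their group means had correlations from −0.17 to 0.36, not all above 0.1, and the labels do not say what the numbers mark. With them as a replicate block 0 members were called for bladder against urethra (Mrc1 2.00, adjusted p = 0.153) and the calls over all genes were 140, against 651. The block could not be fitted for the reference, which carries no number, or for stage, within which numbers are nested. Over all genes, calls ranged without 1 array from 111 to 1292 for bladder against urethra and from 46 to 647 for bladder against sinus. Centring moved the median of all genes for bladder against urethra to 0.19 and for bladder against sinus to 0.38.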

Other observations

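Genes of neutrophils and osteoclasts were lower in the regions than in the newborn reference. Of 11 neutrophil genes, 8 were lower in the bladder, 8 in the urethra and 8 in the sinus, against 17%, 13.2% and 13.8% of all genes called in either direction. Camp, Ltf, S100a8, S100a9 and Lcn2 lay under the filter level on every region array. They entered the test only through the reference arrays, so the filter fixed their direction and they lend the counts no weight. Ltf, the iron-binding lactoferrin of neutrophil granules, lay under the filter level on all 10 region arrays and averaged 13.14 ± 0.27 in the reference, at least 54.0-fold lower in each region. S100a8, a calcium-binding protein of neutrophils, was likewise under the filter level on every region array and at 14.00 ± 0.54 in the reference, at least 97.9-fold lower. Osteoclast genes had 4 of 8 lower in the bladder, 3 in the urethra and 3 in the sinus, Acp5, the acid phosphatase of bone-resorbing cells, among them at −3.09, −3.65 and −4.02 in that order. The osteoclast gene Ocstamp was likewise tested only through the reference arrays. Of 4 monocyte genes, Plac8 was lower in bladder, urethra and sinus (−3.57, −4.16 and −2.26), and Vcan, a matrix proteoglycan of monocytes and stroma, was higher in the bladder (1.23, limma adjusted p = 0.0480). Rag1, which cuts the antigen receptor genes of lymphocytes, lay at the floor of 5.65 on all 10 region arrays and passed the filter only through the reference arrays.

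Mast cell genes were split. The proteases Cma1 (−5.80, −4.35 and −4.88) and Cpa3 (−5.11, −4.35 and −4.45) were lower in bladder, urethra and sinus than in the reference, with limma adjusted p from 0.000112 to 0.00352. Kit, the stem cell factor receptor of mast cells and of several other cell types, was higher in the bladder (2.11, adjusted p = 0.0119). Of 6 red cell genes 1 was higher in each region and 2, 1 and 1 were lower in bladder, urethra and sinus. Of all genes 17%, 13.2% and 13.8% were called in these regions in either direction. In a list this short the counts are no result about red cell genes. The embryonic globin Hbb-y was higher in the bladder (5.64), the urethra (6.34) and the sinus (5.95) than in the reference.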
